A study of Mus musculus with 64 samples.

Results

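The comparison described here set the wound bed of the mouse colon 1 h after a pinch biopsy against colon tissue 1 h after a sham procedure, in 6 wound libraries and 4 sham libraries chosen by their titles and condition labels from the 64 libraries of the series. A pinch biopsy removes a small piece of mucosa with forceps, and the wound bed is what lies at the injured place. All mice were C57BL/6, an inbred laboratory strain, per the labels, which name no genetic change in either group. The labels do not give age, sex, the hour of collection or what the sham consisted of, and nothing in them says whether each library came from a mouse of its own. The p-values therefore speak of the spread among these samples, which may be technical. A treatment text attached to each of the 64 libraries speaks of antibiotics in drinking water and of collection at 6 h, whereas the condition labels of these 10 libraries name 1 h and no antibiotic. Poly(A) RNA was sequenced, and gene levels were deposited as FPKM, fragments scaled to transcript length and to the size of the library, a unit that allows levels of different genes to be compared per length. The wound effect at 6 h, from 5 wound libraries and 5 shams of its own, served only to show which changes differed between the 2 times.

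Tissue injury first acts on transcription through proteins already present in the cell. Growth factor receptors and stretch activate MAP kinases, which phosphorylate factors such as the ternary complex partners of SRF, and these switch on immediate early genes without new protein synthesis. Many of those genes encode transcription factors of the AP-1, EGR and NR4A families, others encode phosphatases and RNA-binding proteins that end the signal, and a second set encodes secreted factors that call in leukocytes, start clotting and make epithelial cells migrate over the defect.

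The promoters of 5 of the 15 genes that rose most are shown first, chosen because they carry short sequences that factors of the early response are known to bind. Each window holds 250 bases before and 50 after the RefSeq start of the gene, in build GRCm38.p6, and is written 5' to 3' on the strand of the gene. Capitals mark matches, on either strand, to the AP-1 site TGANTCA, to the cAMP response element TGACGTCA, to the CArG box bound by SRF or to the NF-kB site. Fosl1, Arc, Hbb-b1, Egr1 and Phlda1, which stand among the same 15 genes, were not matched in the RefSeq table. Of the other 5, Hba-a1, Hba-a2, Hbb-bt and S100a9 held no match in their windows, and Areg, which is not shown, held 1 cAMP response element. Sprr1a, a cornified envelope precursor, lies at chr3:92485832-92486131 on the minus strand with 2 AP-1 matches. Fosb, an AP-1 subunit, lies at chr7:19309996-19310295 on the minus strand with 1 NF-kB match. Plaur, the urokinase receptor, lies at chr7:24462233-24462532 on the plus strand with 1 AP-1 match. Cxcl1, a neutrophil attractant, lies at chr5:90890995-90891294 on the plus strand, where the NF-kB pattern was met on both strands of 1 shared stretch. Hbb-bs, an adult beta globin, lies at chr7:103827879-103828178 on the minus strand with 1 AP-1 match, which lies after the start.
Sprr1a: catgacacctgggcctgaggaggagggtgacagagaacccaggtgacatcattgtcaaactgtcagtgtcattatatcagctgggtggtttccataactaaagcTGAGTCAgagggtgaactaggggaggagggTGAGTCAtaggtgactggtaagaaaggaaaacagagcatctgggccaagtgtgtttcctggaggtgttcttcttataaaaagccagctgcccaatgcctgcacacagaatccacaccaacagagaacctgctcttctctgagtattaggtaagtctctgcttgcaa
Fosb: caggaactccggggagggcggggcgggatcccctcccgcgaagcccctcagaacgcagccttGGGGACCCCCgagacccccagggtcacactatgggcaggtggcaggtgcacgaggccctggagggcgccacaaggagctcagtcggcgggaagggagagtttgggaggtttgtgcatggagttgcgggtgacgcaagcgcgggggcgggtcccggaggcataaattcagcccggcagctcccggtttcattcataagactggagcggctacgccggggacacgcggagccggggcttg
Plaur: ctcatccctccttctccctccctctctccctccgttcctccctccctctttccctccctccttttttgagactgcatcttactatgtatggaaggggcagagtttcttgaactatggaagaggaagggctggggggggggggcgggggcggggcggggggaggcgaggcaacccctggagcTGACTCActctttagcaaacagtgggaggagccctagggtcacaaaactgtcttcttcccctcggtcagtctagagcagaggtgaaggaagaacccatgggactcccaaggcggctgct
Cxcl1: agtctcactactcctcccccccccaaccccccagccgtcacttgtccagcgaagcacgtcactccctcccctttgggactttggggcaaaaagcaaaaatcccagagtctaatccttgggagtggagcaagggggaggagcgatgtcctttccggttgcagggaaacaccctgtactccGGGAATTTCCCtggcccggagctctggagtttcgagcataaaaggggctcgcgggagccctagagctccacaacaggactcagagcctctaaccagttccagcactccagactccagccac
Hbb-bs: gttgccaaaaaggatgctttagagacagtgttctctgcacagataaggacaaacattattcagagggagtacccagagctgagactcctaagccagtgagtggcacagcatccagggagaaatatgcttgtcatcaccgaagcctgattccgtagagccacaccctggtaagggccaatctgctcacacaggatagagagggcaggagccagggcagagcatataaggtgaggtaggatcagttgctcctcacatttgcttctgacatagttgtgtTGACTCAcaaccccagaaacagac
Over sets of genes, the share of windows with an AP-1 match was 14.9% (26 of 175) among genes that rose by at least 1 and met the rule for naming. It was 3.3% (3 of 91) among those that fell as far, 5.38% over the 9884 tested genes with a window and 7.93% over all 27025 windows of the table. The NF-kB site was matched in 10.9% of the windows of rising genes and 1.1% of those of falling genes, against 5.13% of tested genes and 4.35% of all windows. For the CArG box the shares were 4.57% and 0%, against 1.38% of tested genes and 1.57% of all windows, and for the cAMP response element 5.71% and 2.2%, against 3.24% and 1.88%. None of the 22 windows matched for the AP-1 subunits and immediate early genes held TGANTCA, while 6 (27.3%) held an NF-kB match. A CArG box was met in 1 of them and a cAMP response element in 1. A match describes letters in a window and was not tested as a binding site.

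Total FPKM were 486786 to 502437 per wound library and 468597 to 498137 per sham, and small RNA symbols took 6.64 to 10.3% and 7.35 to 8.697% of them. The sources used here give no read counts. A relative depth, read from the low FPKM values of each library against those of wound library 1, was 1.27 to 1.41 for wound libraries and 1.24 to 1.41 for shams. Wound library 1, the reference of that measure, stood at 1.28. Median of ratios factors were 0.809 to 0.906 for wound libraries, each below every sham, where they were 0.982 to 1.06. Wound libraries held 11457 to 11816 genes with at least 1 FPKM, fewer than each sham, which held 11923 to 12281. The labelled tissue was checked against 13 colonocyte markers, whose summed level was 13326 to 14892 FPKM in wound libraries, against 10239.9 to 11901 FPKM in shams. Sham library 1 stood apart in B cell markers, whose summed level was 98.6 FPKM there and 1.58 to 2.43 FPKM in the other 3 shams. Without it, 1198 genes were called higher in the wound bed and 2358 lower. The shams are numbered 1, 2, 4 and 5, and their values are given in that order throughout.

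In the time course 13285 genes reached 1 FPKM in 4 or more of its 41 libraries and were tested. Of these, 1200 were higher in the wound bed at 1 h, 9.03% of those tested, and 2437 were lower, 18.3%. Both shares are the base for the counts of called list members given below. Those counts cover tested members only, and a gene seen only in wound libraries can pass the filter. A call required limma's adjusted p under 0.05 in the same direction for the values as deposited and after 2 other scalings, because the median log2 change of all tested genes was -0.18 as deposited, 0.01 with median of ratios factors and -0.04 once quantiles were made equal. A single scaling moved the split: 1246 higher against 5973 lower for the deposited values, 2762 against 2749 for median of ratios and 2054 against 3375 for quantile normalization. Rises were the larger changes: 301 called genes rose by at least 1 on the log2 scale, 2.27% of those tested, and 174 fell as far, 1.31%. Every wound library was above every sham for 853 genes (6.42%) and below every sham for 4237 (31.9%), so that a lack of overlap is a common state among lower genes. The 15 largest rises and 15 largest falls were chosen among genes without overlap, so for them it follows from the choice. Printed changes are differences of mean log2(FPKM + 1), wound bed minus sham, with their standard errors, on the deposited scale, and have the median of -0.18 as their base line. That scale understates the change of genes near or under 1 FPKM.

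**Figure D1:**
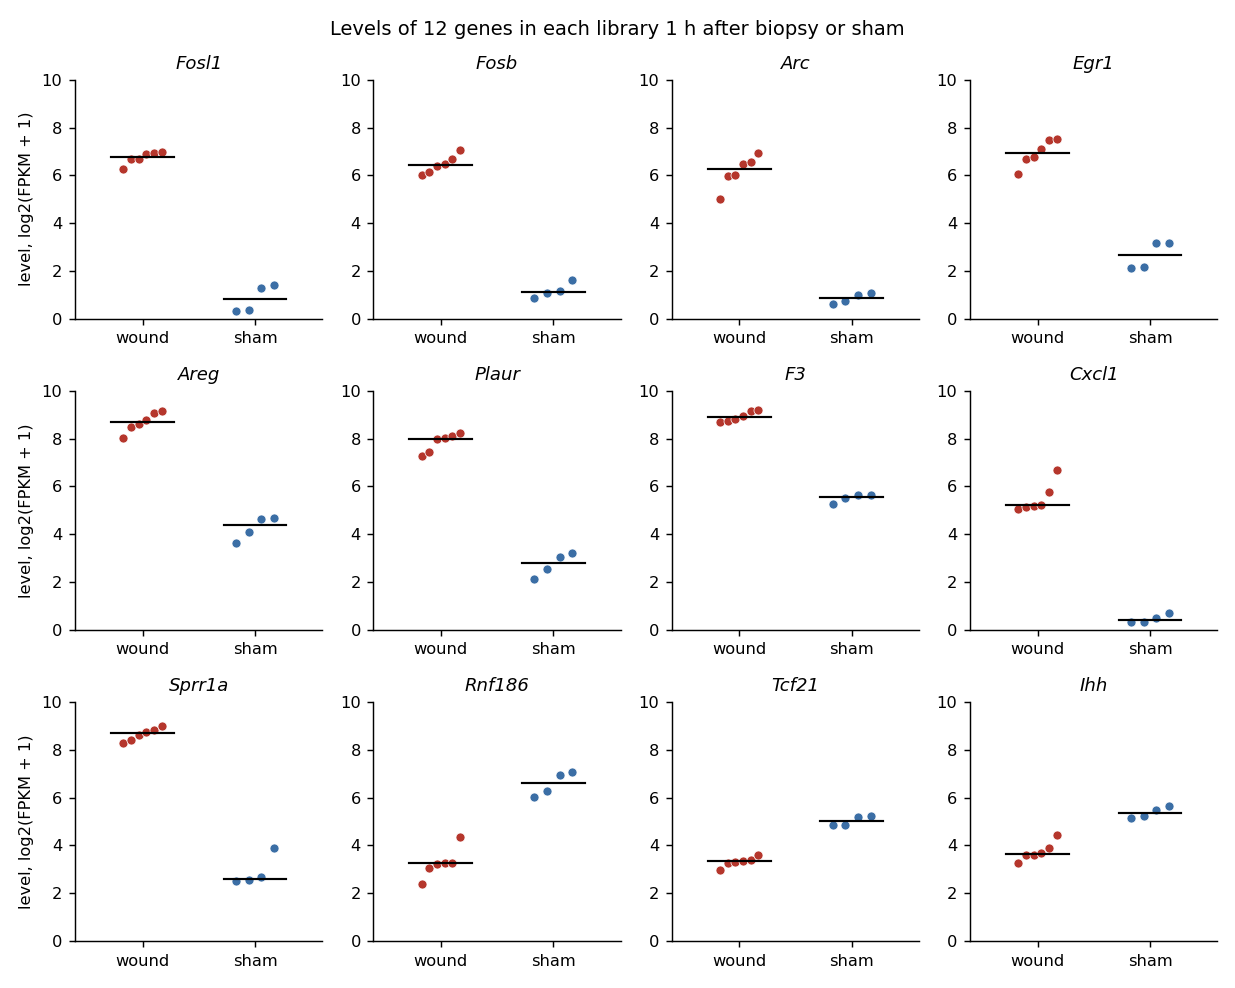
Levels of 12 genes in each library at 1 h, as log2(FPKM + 1), with the 6 wound libraries in red at the left of each panel and the 4 shams in blue at the right; bars mark medians. The 12 genes were picked among those that met the rule for naming, which requires groups apart, so no panel shows overlap. Levels of 9 genes lie higher and those of Rnf186, Tcf21 and Ihh lower in the wound bed.

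AP-1, a dimer of FOS, JUN and ATF family proteins, had 8 of its 12 measured subunits higher, 2 lower and 2 without a call. Fosl1, which encodes FRA-1 (chr19:5447547-5455946), had 75.999 to 123 FPKM (median 109) in wound libraries, against 1.44, 1.64, 0.249 and 0.287 FPKM in shams, a log2 change of 5.89 ± 0.21 (adjusted p = 4.6e-22). The shams were themselves uneven, with 2 above 1 FPKM and 2 under 0.3, while the lowest wound library lay far above all of them. Fosb (chr7:19302696-19310051) had 63.3 to 134 FPKM (median 85.8) in the wound bed, against 1.23, 1.07, 2.05 and 0.835 FPKM in shams (5.29 ± 0.31, adjusted p = 6.75e-16). Fos, the founding member, was already well expressed in shams, with 115 to 317 FPKM (median 221) in wound libraries, against 43.6, 58.1, 80.1 and 29.9 FPKM in shams (2.02 ± 0.36, adjusted p = 1.54e-05). Its relative rise was thus far smaller than that of Fosl1, though its level in the wound bed was higher. Atf3, a stress-induced member, had 65.3 to 228 FPKM (median 118) in the wound bed, against 6.98, 6.47, 11.5 and 6.56 FPKM in shams (3.76 ± 0.32, adjusted p = 3.81e-12). In these 4 genes every wound library lay above every sham. Jun rose by 1.09 and Junb by 1.14, and Jund, the form present in resting cells, rose by 0.87. Fosl2, whose product is FRA-2, had 33.8 to 49.6 FPKM (median 40.7) in wound libraries, against 38.7, 49.8, 40.3 and 41.2 FPKM in shams (-0.04 ± 0.10, adjusted p = 0.738), with the groups overlapping. Batf2 and Batf3, family members known from immune cells, fell by 0.56 and 1.02, and the call for Batf2 was lost without any 1 of wound libraries 1, 2, 4 and 5 or shams 2, 4 and 5. Batf3 was low throughout, with 0.267 to 1.25 FPKM (median 0.456) in wound libraries, against 2.58, 1.997, 1.85 and 2.08 FPKM in shams, and wound library 5, its highest, still lay below the lowest sham.

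Of 15 other immediate early genes, 14 rose, and the list had a median change of 1.93, against -0.18 over all tested genes. Arc (chr15:74669083-74672570), best known from neurons, where its product remodels synapses, had 31.4 to 122 FPKM (median 75.9) in the wound bed, against 1.104, 0.969, 0.658 and 0.522 FPKM in shams (5.32 ± 0.22, adjusted p = 2.41e-20). Egr1, a zinc finger transcription factor, had 66.1 to 185 FPKM (median 123) in wound libraries, against 3.43, 3.31, 8.05 and 7.86 FPKM in shams (4.299 ± 0.34, adjusted p = 5.65e-13). Its relative Egr2 rose at a much lower level, with 3.02 to 5.57 FPKM (median 4.599) in wound libraries, against 0.169, 0.144, 0.348 and 0.274 FPKM in shams (2.12 ± 0.11). Each of the 3 genes was higher in every wound library than in every sham. Nr4a1, an orphan nuclear receptor, had 40.2 to 138 FPKM (median 87.1) in the wound bed, against 6.68, 8.89, 5.26 and 2.54 FPKM in shams (3.71 ± 0.36, adjusted p = 7.69e-11). Its relatives Nr4a2 and Nr4a3 rose by 1.93 ± 0.12 and 1.11 ± 0.17. Btg2, an antiproliferative gene, had 114 to 316 FPKM (median 236) in wound libraries, against 58.1, 48.2, 53.2 and 39.4 FPKM in shams (2.104 ± 0.17, adjusted p = 2.38e-12). Myc, the growth regulator, had 26.9 to 67.5 FPKM (median 45.6) in the wound bed, against 23.3, 15.2, 11.4 and 11.1 FPKM in shams (1.52 ± 0.21). The groups did not overlap for Nr4a1, Btg2 or Myc. Srf itself, the factor that binds CArG boxes, rose by 1.101 ± 0.09 with a narrow spread in both groups, 28.6 to 36.4 FPKM (median 31.2) in wound libraries against 12.9, 13.8, 14.8 and 15.9 FPKM in shams. Ier5l was the 1 member without a call, with 0.92 to 1.62 FPKM (median 1.25) in wound libraries and 2.13, 2.06, 1.92 and 2.097 FPKM in shams, and was the 1 member lower in every wound library than in every sham.

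Krüppel-like factors split within the family. Klf6, an injury-responsive member, had 132 to 183 FPKM (median 160.0) in the wound bed, against 34.7, 36.02, 39.3 and 48.7 FPKM in shams (1.96 ± 0.11, adjusted p = 3.89e-16), with the groups far apart. Klf10, induced by TGF-beta, rose by 1.61, Klf16 by 0.74 and Klf2 by 0.60. Klf15 fell by 0.98. Klf4 and Klf5, which are abundant in colonic surface and crypt epithelium, were not called: Klf4 had 191 to 269 FPKM (median 238) in wound libraries and 243, 222, 239 and 246 FPKM in shams. Klf5 had a change of -0.47 ± 0.12 and was called lower without wound library 2 or without sham 4 (-0.61, adjusted p = 0.0136). Among other short-lived nuclear regulators, 6 of 17 rose and 2 fell. The small MAF proteins Maff (1.70) and Mafk (1.36), the kinase Sik1 (1.57) and the histone demethylase Kdm6b (1.34) each rose by more than 1. Hes1 and Hey1, targets of Notch, fell by 0.66 and 0.32, both with overlap between the groups. The call for Hey1 was lost without any 1 of wound libraries 1, 3 and 6 or shams 1, 4 and 5, and that for Hes1 without sham 4.

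Inhibitors that end MAP kinase signaling formed the next group. Of 17 dual specificity phosphatases, Sprouty and Spred genes and related inhibitors, 12 rose and none fell (1 without sham 4), with a median change of 1.37. Dusp1 had 78.2 to 141 FPKM (median 111) in wound libraries, against 20.2, 12.3, 19.2 and 10.7 FPKM in shams (2.77 ± 0.21, adjusted p = 1.81e-13). Errfi1, which blocks the EGF receptor kinase, had 179 to 244 FPKM (median 231) in the wound bed, against 40.5, 32.9, 26.3 and 18.3 FPKM in shams (2.92 ± 0.17, adjusted p = 2.94e-16). For both genes the lowest wound library was far above the highest sham. Dusp6 and Dusp5, phosphatases of ERK, rose by 2.57 and 2.12. The Sprouty genes differed among themselves. Spry4 (2.07 ± 0.19) and Spry2 (1.65 ± 0.12) rose, whereas Spry1 had 4.11 to 5.3000 FPKM (median 4.99) in wound libraries and 5.61, 5.43, 4.94 and 6.19 FPKM in shams (-0.15 ± 0.12, adjusted p = 0.295).

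Of 11 genes of the EGF family 5 rose, all of them ligands, and 2 fell. Areg, amphiregulin (chr5:91139599-91148432), had 258 to 577 FPKM (median 413) in wound libraries, against 24.4, 24.2, 16.2 and 11.4 FPKM in shams (4.42 ± 0.28, adjusted p = 2.54e-15). Hbegf, heparin-binding EGF-like growth factor, had 47.9 to 112 FPKM (median 77.8) in the wound bed, against 4.598, 4.78, 4.502 and 3.66 FPKM in shams (3.85 ± 0.25, adjusted p = 9.32e-15). Neither ligand overlapped between the groups. Ereg, epiregulin, rose by 3.15 ± 0.24 and Btc, betacellulin, by 0.73 ± 0.13, while Tgfa, another ligand, had 6.76 to 8.44 FPKM (median 7.87) in wound libraries and 6.72, 7.94, 6.94 and 6.62 FPKM in shams. Egfr, the receptor, had 4.16 to 5.898 FPKM (median 4.84) in wound libraries and 5.804, 5.46, 5.31 and 5.47 FPKM in shams (-0.12 ± 0.11, adjusted p = 0.372). The protease gene Adam17, whose product releases these ligands from the membrane, fell by 0.45. Erbb2, the dimer partner of the receptor, fell by 0.79, with 15.2 to 21.5 FPKM (median 18.99) in the wound bed, against 30.6, 28.6, 35.8 and 35.8 FPKM in shams. Grb7, an adaptor that binds ERBB2 and is encoded next to it, fell further, with 5.44 to 9.18 FPKM (median 8.09) in wound libraries, against 26.3, 27.8, 38.4 and 39.8 FPKM in shams (-1.99 ± 0.20, adjusted p = 2.71e-10). Every wound library was below every sham for both. Phlda1, a pleckstrin homology-like protein induced by growth factors, had 148 to 319.8 FPKM (median 226) in the wound bed, against 12.5, 15.3, 11.9 and 12.4 FPKM in shams (4.04 ± 0.20, adjusted p = 4.44e-18). Epha2, an ephrin receptor, rose by 3.78 ± 0.24 and its ligand Efna1 fell by 1.40. Efna1 had 23.4 to 105 FPKM (median 52.3) in wound libraries and 195, 114, 175 and 88.4 FPKM in shams, so that wound library 4 exceeded the lowest sham.

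**Figure D2:**
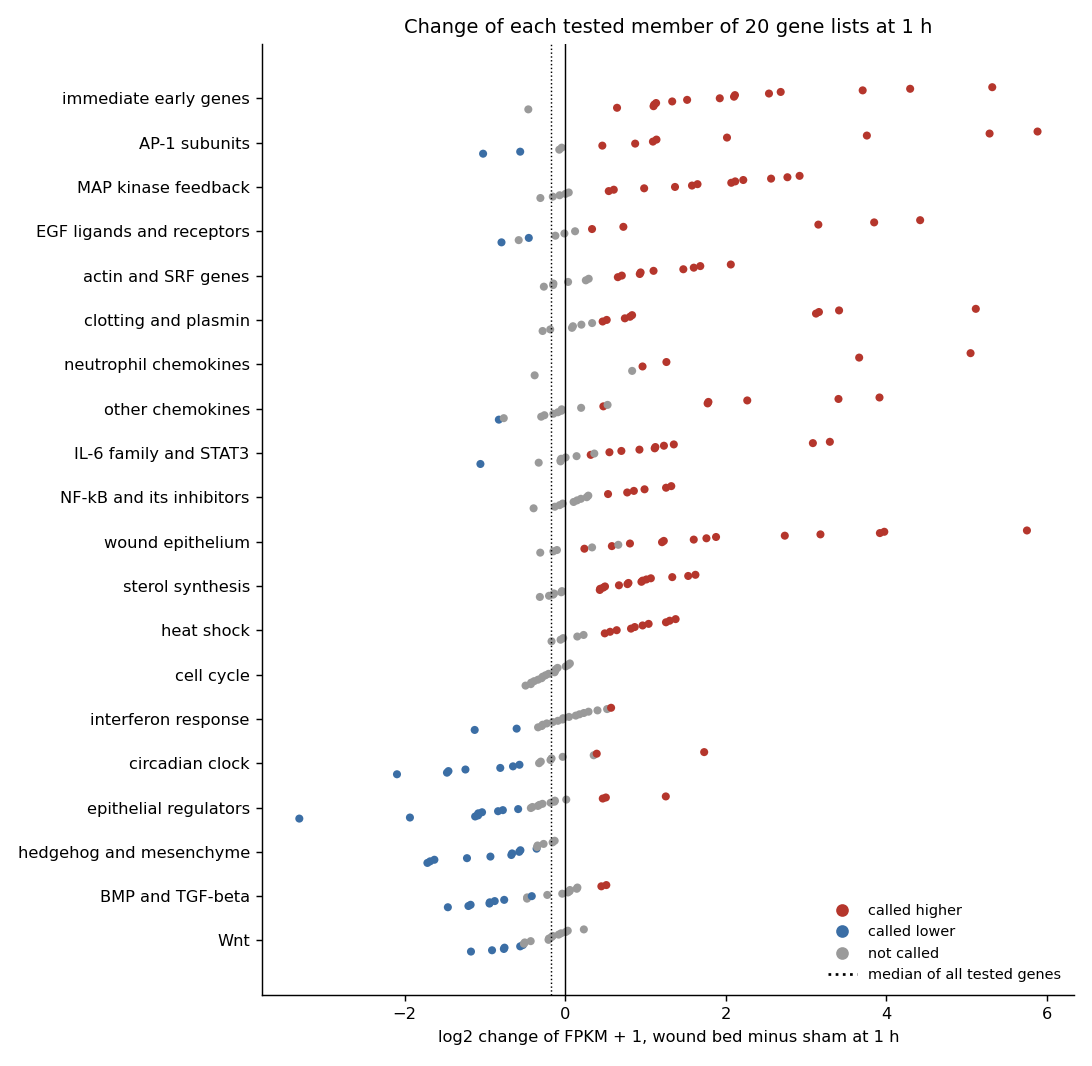
Log2 change of FPKM + 1, wound bed minus sham at 1 h, for every tested member of 20 gene lists; red points were called higher, blue points lower and grey points not called, and the dotted line marks the median of all tested genes at -0.18. Immediate early genes have 14 of 15 members called higher, hedgehog and mesenchymal regulators 10 of 15 called lower, and the cell cycle list has no called member.

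Genes of the actin cytoskeleton include known targets of SRF and its coactivator MRTF. Of 15 tested, 9 rose and none fell. Actg1, cytoplasmic gamma actin, had 3327 to 3974 FPKM (median 3574) in wound libraries, against 1321, 1324, 1214 and 925 FPKM in shams (1.603 ± 0.12, adjusted p = 2.61e-13). Actb, cytoplasmic beta actin, had 2370.1 to 3076 FPKM (median 2594) in the wound bed, against 903, 951, 1033 and 923 FPKM in shams (1.47 ± 0.08, adjusted p = 1.46e-16). In both genes the lowest wound library was far above the highest sham. Fhl2, a LIM protein of adhesions, rose by 2.06 ± 0.12, Zyx, zyxin, by 1.68 ± 0.14 and Vcl, vinculin, by 0.66 ± 0.12. Myh9, nonmuscle myosin heavy chain, had 97.6 to 116 FPKM (median 103) in wound libraries and 111, 109, 85.02 and 104 FPKM in shams (0.04 ± 0.06, adjusted p = 0.649). Among 15 YAP/TAZ genes 3 rose and 2 fell, against 9.03% and 18.3% of all tested genes. Cyr61, a matricellular protein, rose by 2.51 ± 0.29 and Ctgf by 1.002 ± 0.22, while the kinase gene Nuak2 fell by 0.98.

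Clotting and plasmin control formed the next group, with 9 of 15 members higher and none lower. F3, tissue factor, which starts the clotting cascade, had 409.7 to 584 FPKM (median 473) in wound libraries, against 48.6, 44.3, 48.3 and 37.9 FPKM in shams (3.41 ± 0.14, adjusted p = 2.66e-20). It was therefore present in every sham and several times higher in every wound library. Plaur (chr7:24462484-24475968) had 155 to 299 FPKM (median 253) in the wound bed, against 8.18, 7.23, 4.79 and 3.38 FPKM in shams (5.12 ± 0.21, adjusted p = 2.41e-20). Plau, urokinase itself, rose by 0.83 ± 0.21. The groups did not overlap for either gene. Thbs1, thrombospondin, rose by 3.16 ± 0.26. Tfpi, the inhibitor of tissue factor, had 4.57 to 7.51 FPKM (median 5.88) in wound libraries and 6.48, 6.93, 6.69 and 7.05 FPKM in shams (-0.19 ± 0.15, adjusted p = 0.314). Of 11 genes of endothelial activation, 5 rose, all from low levels in shams. Selp, P-selectin, had 1.82 to 3.91 FPKM (median 2.59) in wound libraries, against 0.6, 0.333, 0.45 and 0.609 FPKM in shams (1.29 ± 0.21). Icam1, an adhesion receptor for leukocytes, rose by 1.25 ± 0.27 and Apold1, an early response gene of endothelium, by 1.93 ± 0.14, while Vcam1 had 2.603 to 4.25 FPKM (median 3.54) in wound libraries and 5.94, 3.31, 1.905 and 3.01 FPKM in shams. The summed level of 9 endothelial markers was 26.4 to 37.1 FPKM in wound libraries, against 37.6 to 47.8 FPKM in shams, lower in every wound library. Of the 9 markers 1 was called lower, against 18.3% of all tested genes.

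Blood cell transcripts were the second source of large changes. All 7 tested red blood cell genes rose, and 5 globin genes stand among the 15 largest rises. The summed level of 8 red blood cell markers was 1261 to 9409 FPKM in wound libraries, against 52.5 to 205 FPKM in shams. Hba-a2 had 119.9 to 476 FPKM (median 256) in wound libraries, against 3.05, 6.78, 6.42 and 7.05 FPKM in shams (5.21 ± 0.74, adjusted p = 2.9e-07). Hbb-bs had 44.1 to 326 FPKM (median 138) in the wound bed, against 3.103, 0.0066, 12.2 and 6.48 FPKM in shams (4.73 ± 0.81, adjusted p = 6.2e-06). For both genes the wound libraries spread widely and all lay above the shams. Hbb-b1 changed by 4.63 ± 0.59, Hba-a1 by 4.57 ± 0.63 and Hbb-bt by 4.56 ± 0.54. The separate values of all 5 globin genes, Hba-a2 and Hbb-bs among them, are uncertain. Within the alpha and within the beta cluster the copies are nearly the same in sequence, so the 5 cannot be read as separate rises. Alas2, the heme synthesis enzyme of red cell precursors, which has no such copy, rose by 2.66 ± 0.40. Of 9 platelet genes 7 passed the filter on low values, which levels in the wound bed alone can meet, and 5 of them rose. With the filter at 5 FPKM 1 rose, since fewer were tested. Ppbp, the precursor of platelet basic protein, had 5.62 to 22.8 FPKM (median 13.9) in wound libraries, against 0.234, 0.296, 0.392 and 0.309 FPKM in shams (3.34 ± 0.24, adjusted p = 1.17e-13). Gp9, a subunit of the platelet receptor for von Willebrand factor, had 1.6999 to 6.81 FPKM (median 3.78) in wound libraries and was listed at 0 in all 4 shams. Pf4, platelet factor 4, had 38.2 to 59.9 FPKM (median 46.5) in wound libraries and 31.6, 33.5, 51.4 and 42.8 FPKM in shams (0.29 ± 0.16, adjusted p = 0.125), so the platelet genes were not alike: Ppbp and Gp9 did not overlap between the groups and Pf4 did. Without sham 4, Pf4 was called higher (0.41, adjusted p = 0.039).

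Of 11 neutrophil markers 7 rose, and the summed level of the list was 18.4 to 111 FPKM in wound libraries, against 2.105 to 5.91 FPKM in shams, with Ngp at 0 in all 10 libraries. S100a9, a calprotectin subunit, had 8.25 to 54.9 FPKM (median 24.6) in wound libraries, against 0.135, 0, 0.952 and 0.439 FPKM in shams (4.15 ± 0.44, adjusted p = 6.07e-10), with no overlap. The wound libraries stood in nearly the same order for red blood cell and for neutrophil markers. Wound libraries 1 and 2 had the lowest sums of both lists and wound libraries 3 and 5 the highest, at 4008 and 9409 FPKM of red blood cell markers and 90.6 and 111 FPKM of neutrophil markers. The part of blood in the tissue in these rises was not tested. In these bulk samples, more cells of a type and more RNA per cell cannot be told apart.

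**Figure D3:**
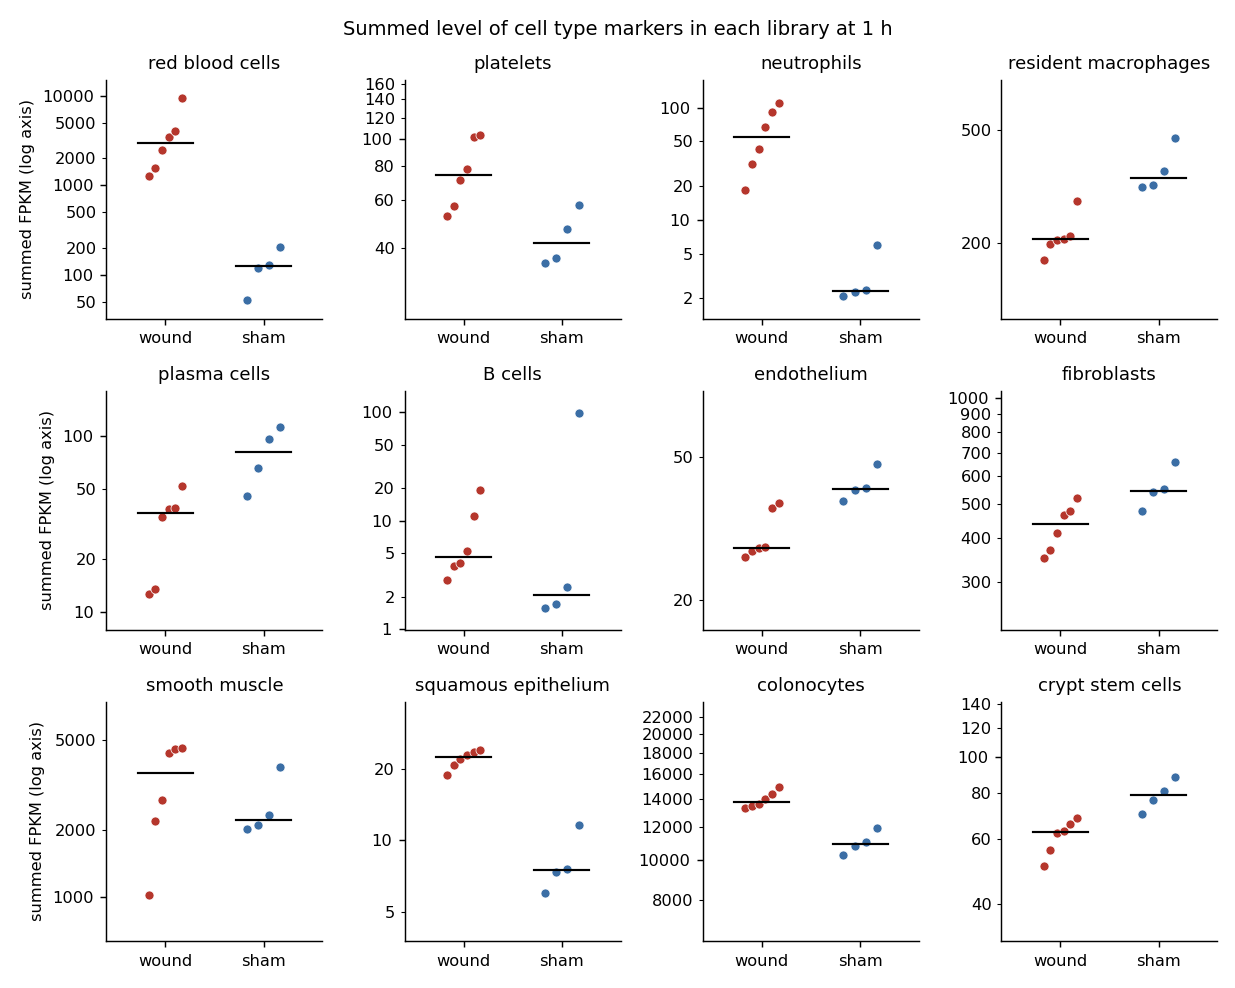
Summed FPKM of 12 lists of cell type markers in each library at 1 h on a log axis, wound libraries in red at the left and shams in blue at the right, with bars at the medians. Red blood cell, neutrophil, squamous and colonocyte sums are higher in every wound library than in every sham, and macrophage, endothelial and crypt stem cell sums are lower in every wound library.

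Chemokine genes rose unevenly. Of 6 tested neutrophil attractants and colony stimulating factors 4 rose. Cxcl1 (chr5:90891241-90893115) had 32.6 to 104 FPKM (median 35.9) in wound libraries, against 0.638, 0.243, 0.244 and 0.427 FPKM in shams (5.05 ± 0.33, adjusted p = 6.68e-15). Cxcl2, which acts on the same receptor, had 8.02 to 30.1 FPKM (median 12.4) in the wound bed, against 0.0259, 0, 0.343 and 0.224 FPKM in shams (3.66 ± 0.55, adjusted p = 6.54e-07). Both were highest in wound library 3 and close to 0 in all 4 shams. Cxcl5 rose by 1.26 ± 0.27, and Cxcl3 had 0.707 to 1.89 FPKM (median 0.819) in wound libraries and 0, 0.0637, 0.192 and 0.151 FPKM in shams (0.83 ± 0.37, adjusted p = 0.0571), which missed the threshold although the groups did not overlap. Csf3, the granulocyte colony stimulating factor, had 0.525 to 2.04 FPKM (median 0.691) in wound libraries, against 0, 0, 0.0199 and 0 FPKM in shams (0.96 ± 0.25, adjusted p = 0.00167), and Csf1, which acts on macrophages, had 2.89 to 7.42 FPKM (median 4.22) in wound libraries and 7.26, 6.03, 5.97 and 6.14 FPKM in shams (-0.38 ± 0.22, adjusted p = 0.147). Of 16 other inflammatory chemokines 6 rose and 1 fell (2 without wound library 3). Ccl2, the main monocyte attractant, had 27.4 to 73.9 FPKM (median 44.9) in wound libraries, against 1.97, 1.7000, 3.82 and 1.81 FPKM in shams (3.92 ± 0.27, adjusted p = 1.99e-14), and its neighbour gene Ccl7 rose by 3.41 ± 0.26. Cxcl10, which attracts T cells, had 5.396 to 25.7 FPKM (median 6.45) in wound libraries, against 0.865, 0.58, 0.895 and 2.56 FPKM in shams (2.27 ± 0.35, adjusted p = 1.04e-06). Neither Ccl2 nor Cxcl10 overlapped between the groups. Cxcl12, which retains cells in tissue, fell by 0.83, with 11.9 to 18.9 FPKM (median 14.7) in the wound bed, against 27.8, 24.7, 26.1 and 29.3 FPKM in shams.

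Il6, a cytokine of fever and epithelial repair, had 5.14 to 14.2 FPKM (median 9.09) in the wound bed, against 0.0516, 0.0294, 0.0519 and 0 FPKM in shams (3.298 ± 0.24, adjusted p = 1.07e-13). The IL-6 family and STAT3 target list had 10 of 18 members higher and 1 lower. Socs3, the inhibitor that STAT3 induces, had 44.4 to 74.3 FPKM (median 56.6) in wound libraries, against 15.96, 8.44, 2.71 and 2.59 FPKM in shams (3.09 ± 0.38, adjusted p = 1.42e-08), whereas Socs2 fell by 1.06, with 4.63 to 9.63 FPKM (median 5.41) in wound libraries, against 12.7, 13.1, 14.9 and 12.9 FPKM in shams. Neither gene overlapped, although the shams of Socs3 differed several-fold among themselves. Other ligands of the family were low: Il11 had 1.15 to 3.78 FPKM (median 1.29) in the wound bed, against 0.169, 0.255, 0.199 and 0.297 FPKM in shams (1.12 ± 0.19), Lif rose by 0.701 ± 0.16 and Osm, oncostatin M, by 0.93 ± 0.29. Pim1, a kinase gene under STAT3, rose by 1.23 ± 0.15, while Stat3 itself had a change of 0.32 ± 0.13, whose call was lost without any 1 of wound libraries 1, 2 and 4 or shams 4 and 5 (0.19 without sham 4, adjusted p = 0.234). Il1b had 7.92 to 36.8 FPKM (median 14.9) in wound libraries, against 2.004, 0.792, 0.534 and 0.751 FPKM in shams (3.14 ± 0.45, adjusted p = 3.26e-07), and its 2 highest values lay in wound libraries 3 and 5, which also had the highest neutrophil sums. Its antagonist Il1rn was higher in level, with 107 to 188 FPKM (median 154) in the wound bed, against 49.2, 49.9, 45.8 and 51.1 FPKM in shams (1.602 ± 0.14, adjusted p = 1.29e-11). Il33, an alarmin of epithelium and stroma, had 1.79 to 3.62 FPKM (median 2.79) in wound libraries and 3.66, 3.01, 1.87 and 2.81 FPKM in shams (-0.02 ± 0.18, adjusted p = 0.94). Tnfrsf12a, the receptor of TWEAK, had 214 to 392 FPKM (median 279) in wound libraries, against 46.9, 30.4, 15.4 and 12.1 FPKM in shams (3.54 ± 0.26, adjusted p = 1.03e-13), while Tnf itself was low and overlapped, with 1.04 to 7.73 FPKM (median 1.84) in wound libraries, against 1.13, 0.0751, 0.199 and 0.32 FPKM in shams (1.26 ± 0.34, adjusted p = 0.00213).

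Of 15 NF-kB subunits and feedback inhibitors 6 rose and none fell, with a median of 0.27. Rela, a subunit, rose by 0.99 ± 0.09 and Bcl3, a nuclear cofactor, by 1.32 ± 0.24. Nfkbia, the inhibitor induced first by NF-kB, had 46.4 to 129 FPKM (median 55.4) in wound libraries, against 46.1, 34.97, 39.3 and 50.7 FPKM in shams (0.53 ± 0.18, adjusted p = 0.0142), and its highest value was that of wound library 3. Without that library the change of Nfkbia was 0.32, its largest adjusted p over the 3 scalings was 0.0722, and the call was lost. The call was also lost without sham 2 or sham 4. Tnfaip3, another inhibitor, had 13.8 to 43.2 FPKM (median 16.04) in wound libraries and 16.3, 14.97, 15.5 and 18.04 FPKM in shams (0.196 ± 0.18, adjusted p = 0.366), with its highest value in the same library. Zfp36, tristetraprolin, which brings cytokine mRNAs to decay, had 139 to 321 FPKM (median 217) in the wound bed, against 58.97, 47.8, 48.2 and 36.7 FPKM in shams (2.11 ± 0.18, adjusted p = 3.42e-12). Zc3h12a, regnase-1, an RNase with like targets, rose by 0.98 ± 0.17, and both were higher in every wound library than in every sham, while Khsrp, another decay factor, fell by 0.47. In prostaglandin metabolism 2 of 15 genes rose and 4 fell, against 9.03% and 18.3% of all tested genes. Without sham 5 only 2 fell. Ptgs2, the inducible cyclooxygenase, had 6.17 to 15.5 FPKM (median 10.5) in wound libraries, against 0.743, 0.954, 0.842 and 1.03 FPKM in shams (2.48 ± 0.32, adjusted p = 4.55e-08), and the receptor gene Ptger4 rose by 0.85 ± 0.09. Ptges, the inducible prostaglandin E synthase, fell by 0.61 and Hpgds, the hematopoietic prostaglandin D synthase, by 1.00.

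Wound-associated epithelial genes had 13 of 18 tested members higher and none lower. Sprr1a (chr3:92483952-92485895) had 310.3 to 514 FPKM (median 411) in wound libraries, against 13.6, 5.32, 4.69 and 4.91 FPKM in shams (5.75 ± 0.25, adjusted p = 6.42e-20), with the highest sham value in sham 1. Krt6a, a keratin of stressed epithelium, had 8.13 to 23.6 FPKM (median 16.9) in the wound bed, against 0.17, 0.00859, 0.122 and 0.177 FPKM in shams (3.92 ± 0.18, adjusted p = 5.14e-19), and Krt6b, a close copy whose separate value is uncertain, changed by 3.18 ± 0.16. Cldn4, a tight junction protein, had 193 to 298 FPKM (median 243) in wound libraries, against 31.8, 37.9, 51.8 and 24.8 FPKM in shams (2.74 ± 0.23, adjusted p = 1.85e-12). Krt18, a keratin of simple epithelium, had 837 to 1064 FPKM (median 949) in the wound bed, against 280.2, 274, 297 and 267 FPKM in shams (1.76 ± 0.10, adjusted p = 6.18e-16). Anxa1, annexin A1, an inhibitor of leukocyte entry, had 409 to 516 FPKM (median 457) in wound libraries, against 221, 193, 199.8 and 185 FPKM in shams (1.21 ± 0.11, adjusted p = 2.13e-11). For none of these genes did a wound library fall into the range of the shams. Clu, Ly6a, Krt17, Cldn1 and Msln were not called, though Krt17 was called higher without wound library 6 or without sham 5. Squamous markers were low, with a summed level of 18.9 to 23.9 FPKM in wound libraries, against 6.01 to 11.5 FPKM in shams, higher in every wound library. Of the 10 squamous markers 4 passed the filter on low values, and Krt13 (1.97 ± 0.22), Krt14 (1.56 ± 0.22) and Krt15 (1.32 ± 0.17) rose. The part of squamous tissue in the wound epithelium list was not tested.

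Among the laminin-332 subunits that migrating epithelium lays down, Lamb3 rose by 0.795 ± 0.12, while Lama3 had 10.99 to 15.7 FPKM (median 12.997) in wound libraries and 9.62, 11.8, 10.6 and 8.86 FPKM in shams (0.33 ± 0.17, adjusted p = 0.0977). Itga5, the fibronectin receptor subunit, had 25.2 to 83.98 FPKM (median 58.9) in wound libraries, against 28.8, 19.99, 14.7 and 21.9 FPKM in shams (1.32 ± 0.36, adjusted p = 0.00229), with overlap. Wound library 6, the lowest in Itga5, also had the lowest sum of smooth muscle markers, 1021 FPKM, where the other 5 wound libraries had 2196 to 4633 FPKM and the shams 2009 to 3813 FPKM. The part of smooth muscle content in Itga5 was not tested.

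Sterol genes under SREBP2 rose in 14 of 20 cases and fell in none. Insig1, whose product holds the SREBP factors back when sterols are plentiful, had 67.9 to 138 FPKM (median 108) in wound libraries, against 31.2, 43.1, 51.1 and 37.4 FPKM in shams (1.33 ± 0.19, adjusted p = 2.4e-07). Idi1, an isomerase of the mevalonate pathway, had 47.4 to 99.9 FPKM (median 74.6) in the wound bed, against 34.3, 43.6, 35.9 and 36.1 FPKM in shams (0.95 ± 0.13, adjusted p = 1.22e-07). Neither overlapped between the groups. Srebf2, which encodes the factor, rose by 0.44 ± 0.09, and Sqle, squalene epoxidase, by 0.67 ± 0.12. Mvk, mevalonate kinase, was among the 6 without a call, with 10.3 to 27.1 FPKM (median 14.05) in wound libraries and 16.1, 17.8, 21.6 and 21.7 FPKM in shams (-0.32 ± 0.15, adjusted p = 0.0709).

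Heat shock genes rose in 10 of 15 cases. Dnajb1, a cochaperone, did not overlap and had 55.9 to 72.9 FPKM (median 65.7) in wound libraries, against 27.2, 25.2, 24.3 and 26.3 FPKM in shams (1.302 ± 0.10, adjusted p = 1.25e-13). Hspa1a, the inducible chaperone, had 10.5 to 28.1 FPKM (median 18.1) in the wound bed, against 9.63, 6.93, 6.19 and 9.89 FPKM in shams (1.04 ± 0.22), a modest level for which reads shared with its close copy Hspa1b make the value uncertain. Hspb1 changed by 1.38 ± 0.40 with overlap, and its lowest wound value, 27.9 FPKM, again lay in wound library 6. Cryab, a small heat shock protein abundant in muscle, rose by 1.26 ± 0.32, also with overlap. Hspd1, the mitochondrial chaperonin, had 40.4 to 53.9 FPKM (median 44.5) in wound libraries and 51.9, 50.6, 40.4 and 42.9 FPKM in shams.

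Stress and growth arrest genes were split. Gadd45g, a stress sensor, had 63.6 to 88.3 FPKM (median 74.1) in wound libraries, against 15.997, 14.4, 10.7 and 9.84 FPKM in shams (2.48 ± 0.19, adjusted p = 2.58e-13), with no overlap. Plk3, a stress-induced kinase gene, rose by 2.15 ± 0.25, Mdm2, the ligase that removes p53, by 1.09 ± 0.07 and Cdkn1a, the inhibitor p21, by 1.26 ± 0.15. Cdkn1b, the inhibitor p27, fell by 1.11 and Sesn1, a sestrin, by 1.06. In the unfolded protein and integrated stress response 3 of 13 genes rose and 1 fell, against 9.03% and 18.3% of all tested genes. Trib1, a pseudokinase, had 65.2 to 143 FPKM (median 112) in the wound bed, against 15.3, 19.5, 13.3 and 9.56 FPKM in shams (2.84 ± 0.19, adjusted p = 9.32e-15), and Atf4 rose by 1.01 ± 0.09, while Ddit3, which encodes CHOP, had 19.7 to 26.9 FPKM (median 24.9) in wound libraries and 29.9, 25.9, 30.01 and 25.6 FPKM in shams. Of 18 hypoxia and glycolysis genes 7 rose and 5 fell, and 3 fell without wound library 3, sham 4 or sham 5. The glucose transporter gene Slc2a1 rose by 1.100 ± 0.11, whereas Vegfa fell by 0.65 and Ankrd37, an ankyrin repeat gene under HIF-1, by 1.83. Ankrd37 was uneven in both groups, with 3.99 to 24.4 FPKM (median 6.92) in wound libraries, against 28.9, 13.7, 64.1 and 37.4 FPKM in shams. Hmox1, heme oxygenase, and Srxn1, sulfiredoxin, were the 2 of 12 antioxidant genes that rose (4 without sham 2), by 1.74 ± 0.22 and 1.47 ± 0.11.

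The largest fall was in Rnf186, a RING ubiquitin ligase of colonic epithelium (chr4:138967112-138968360), with 4.27 to 19.2 FPKM (median 8.45) in wound libraries, against 76.1, 63.6, 132 and 121 FPKM in shams (-3.31 ± 0.23, adjusted p = 4.73e-14). The highest wound value was that of wound library 4, still far below the lowest sham. Of 22 epithelial identity regulators, counted with Rnf186, 10 fell and 3 rose, with a median of -0.42. Myb, a factor outside that list which crypt progenitors need, had 3.95 to 8.28 FPKM (median 6.81) in wound libraries, against 21.3, 19.4, 20.1 and 23.9 FPKM in shams (-1.58 ± 0.11, adjusted p = 7.53e-14). Tfap4, a helix-loop-helix factor, had 0.729 to 1.68 FPKM (median 1.24) in the wound bed, against 7.93, 5.33, 7.82 and 9.398 FPKM in shams (-1.93 ± 0.13, adjusted p = 3.06e-14). Neither overlapped between the groups. Foxa2, a forkhead factor, changed by -1.08 ± 0.14 and Atoh1, the secretory lineage factor, by -1.12 ± 0.14. The nuclear receptor gene Vdr, the vitamin D receptor, fell by 0.84 and Esrra, which drives mitochondrial genes, by 0.59. Hnf4a went the other way, with 256 to 303 FPKM (median 278) in wound libraries, against 190.2, 210.4, 182 and 195 FPKM in shams (0.51 ± 0.06, adjusted p = 4.39e-09), and Sox9, a factor of crypt base and regenerating cells, rose by 1.25 ± 0.15. Cdx2 had 5.67 to 20.1 FPKM (median 10.6) in wound libraries and 35.01, 17.3, 7.79 and 3.72 FPKM in shams, a wide spread, and was not called (-0.18 ± 0.33, adjusted p = 0.667). Colonocyte markers as a whole did not fall in summed level, which was higher in every wound library than in every sham. Of the 13 markers 5 were called higher and none lower. Cdhr5 was called lower with the deposited values alone (-0.23) and with quantile normalization alone (-0.34). None of 9 goblet cell markers was called by limma in all 3 scalings, 0 of them with an unadjusted p under 0.05 on the deposited values. Median of ratios scaling alone called 2 goblet markers higher, and quantile normalization alone called 1 higher and 2 lower.

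Genes of hedgehog signaling and of the stroma beneath the epithelium were mostly lower. Of 15 tested hedgehog pathway genes and mesenchymal transcription factors 10 fell and none rose, with a median of -0.57. Ihh, the hedgehog ligand that colonic epithelium sends to the stroma, had 8.6002 to 20.4 FPKM (median 11.4) in wound libraries, against 33.99, 36.5, 49.01 and 43.7 FPKM in shams (-1.63 ± 0.15, adjusted p = 1.41e-11). Its target Gli1 was low, with 0.812 to 1.53 FPKM (median 0.971) in the wound bed, against 1.996, 2.27, 2.08 and 2.36 FPKM in shams (-0.66 ± 0.20, adjusted p = 0.00525). Tcf21, a helix-loop-helix factor of gut mesenchyme, had 6.72 to 11.02 FPKM (median 9.03) in wound libraries, against 28.2, 27.7, 34.9 and 36.4 FPKM in shams (-1.72 ± 0.17, adjusted p = 1.14e-10). Osr1, a zinc finger factor of mesenchymal progenitors, had 0.77 to 1.77 FPKM (median 1.32) in the wound bed, against 6.04, 4.61, 6.46 and 8.34 FPKM in shams (-1.68 ± 0.18, adjusted p = 1.27e-09). In all 4 genes every wound library was below every sham. Nkx2-3 changed by -1.22 ± 0.18, Foxf2 by -0.93 ± 0.19 and Foxl1, a marker of subepithelial cells, by -0.56 ± 0.11. Of 8 fibroblast markers 2 were called lower, against 18.3% of all tested genes, with a median change of -0.46. With the deposited values alone, quantile normalization alone or a fit of only the compared groups, 4 were called lower. The summed level of the 8 markers was 349.9 to 518 FPKM in wound libraries, against 477 to 656 FPKM in shams. The part of fibroblasts in the falls above was not tested. With the filter set at 5 FPKM instead of 1, 4 members of the hedgehog and mesenchyme list fell, since fewer of its members were tested.

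Signals of the BMP and Wnt families were lower in part. Of 19 BMP, TGF-beta and activin genes 8 fell and 2 rose, and 1 rose without any 1 of wound libraries 1, 2 and 4 or shams 2, 4 and 5. Id3, a direct BMP target, had 34.7 to 43.8 FPKM (median 38.2) in wound libraries, against 117, 94.6, 112 and 108 FPKM in shams (-1.46 ± 0.11, adjusted p = 1.68e-13), Smad6, an inhibitor of the pathway, fell by 1.18 and Bmp4 by 0.94. No wound library reached the range of the shams for Id3. Id1, a target of the same pathway, had 307 to 502 FPKM (median 420.2) in wound libraries and 429, 349, 337 and 341 FPKM in shams (0.15 ± 0.16, adjusted p = 0.423), with overlap. Of 18 Wnt genes 6 fell and none rose: Ascl2, a crypt stem cell factor, had 0.473 to 2.24 FPKM (median 1.23) in the wound bed, against 3.296, 2.86, 5.27 and 5.35 FPKM in shams (-1.17 ± 0.22, adjusted p = 1.98e-05), and Wnt4 fell by 0.91. Among Hox genes, a family chosen after its values were seen, 16 of 22 tested fell and none rose. Hoxa9 averaged 3.95 ± 0.712 FPKM in wound libraries and 10.8 ± 0.877 FPKM in shams (SD, n = 6 and n = 4), a change of -1.26 ± 0.10. Hoxb13, the most abundant of them, averaged 310.2 ± 34.4 FPKM in wound libraries and 367 ± 68.995 FPKM in shams and was not called.

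**Figure D4:**
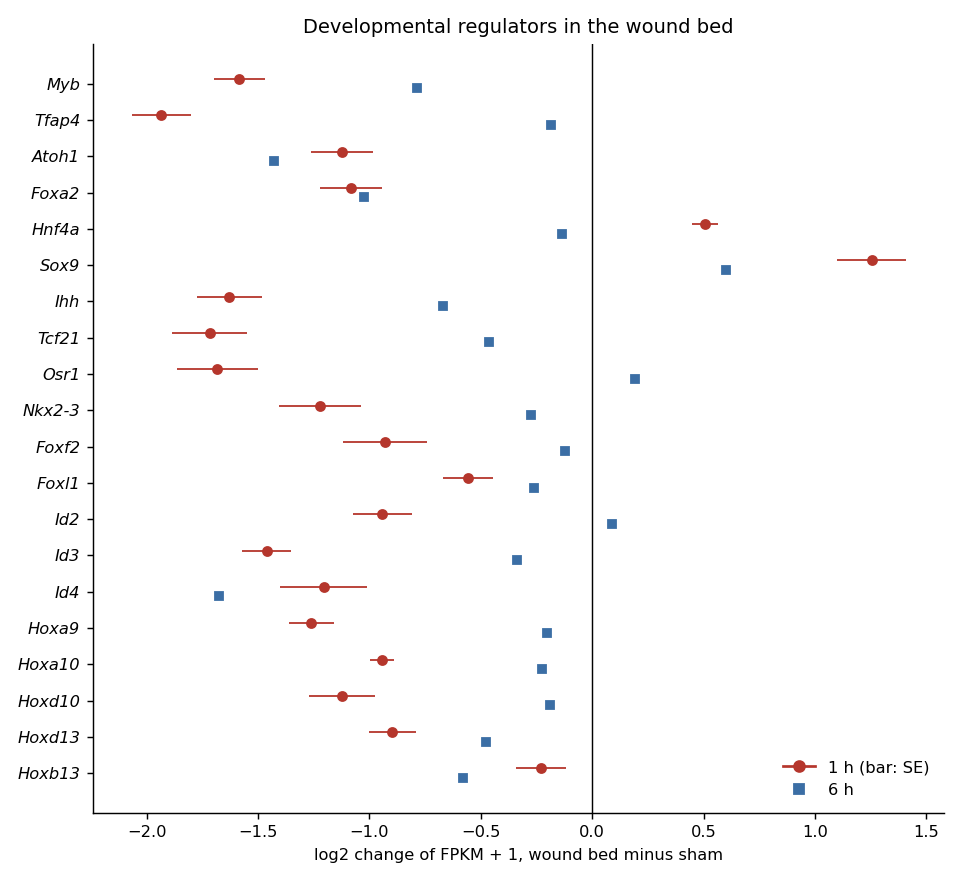
Log2 change of FPKM + 1, wound bed minus sham, for 20 developmental regulators at 1 h (red circles with bars for the SE) and at 6 h (blue squares). All but Hnf4a, Sox9 and Hoxb13 were called lower at 1 h, Hnf4a and Sox9 were called higher, and at 6 h Id2 lies close to 0.

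The circadian clock list had 7 of 15 members lower and 2 higher, with 1 higher without sham 5. Dbp, a clock output factor, had 3.92 to 19.9 FPKM (median 18.4) in wound libraries, against 52.01, 47.6, 85.8 and 83.8 FPKM in shams (-2.095 ± 0.36, adjusted p = 8.87e-06), with its lowest value in wound library 6. Per3 fell by 1.45, Ciart by 1.47 and Tef by 1.24, all output or feedback genes of the clock, while Nfil3, a repressor that competes with DBP for its sites, rose by 1.73 ± 0.19. Per1, a core clock gene that also acts as an early response gene, had 8.204 to 14.6 FPKM (median 11.2) in wound libraries and 13.4, 16.9, 13.5 and 8.95 FPKM in shams (-0.18 ± 0.20, adjusted p = 0.453). The remaining genes of the 15 largest falls belong to no list. Tsku, a secreted leucine-rich proteoglycan, had 1.81 to 2.24 FPKM (median 2.01) in the wound bed, against 10.2, 8.68, 15.97 and 10.2 FPKM in shams (-1.997 ± 0.15, adjusted p = 3.07e-13). Its 6 wound values lay close together. Kcnk5, a potassium channel of transporting epithelia, had 6.47 to 12.1 FPKM (median 8.88) in wound libraries, against 26.6, 37.7, 36.6 and 30.8 FPKM in shams (-1.79 ± 0.15, adjusted p = 1.34e-12). Neither gene overlapped between the groups. Cited2, a coregulator that competes with HIF-1 for its coactivators, changed by -1.55 ± 0.16, Pitx1, a homeobox factor, by -1.58 ± 0.18, Scml4, a Polycomb-related gene, by -1.62 ± 0.12, Fam109a, an adaptor of endosomal traffic, by -1.58 ± 0.16 and the zinc finger gene Zkscan14 by -1.49 ± 0.14.

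Markers of resident macrophages were lower, with 7 of 12 called and a summed level of 174 to 280.3 FPKM in wound libraries, against 316 to 468 FPKM in shams. Csf1r, their growth factor receptor, had 4.62 to 7.69 FPKM (median 5.67) in wound libraries, against 15.01, 10.5, 12.2 and 14.3 FPKM in shams (-1.05 ± 0.21, adjusted p = 5.63e-05), and C1qa, a complement subunit, had 24.2 to 37.9 FPKM (median 31.5) in wound libraries, against 69.4, 56.4, 57.7 and 58.4 FPKM in shams (-0.94 ± 0.17). The groups did not overlap for either. Receptors that sense microbes were split, with 3 of 15 higher and 5 lower, against 9.03% and 18.3% of all tested genes. Nlrc4, an inflammasome sensor, rose by 0.62 ± 0.10, and Casp4, the caspase that binds bacterial lipopolysaccharide, by 0.63 ± 0.14, while Nlrp6, a sensor of colonic epithelium, had 12.3 to 19.6 FPKM (median 15.8) in wound libraries, against 27.4, 25.03, 35.1 and 51.9 FPKM in shams (-1.06 ± 0.21) and Tlr3, a receptor for double-stranded RNA, fell by 0.85. The glucocorticoid receptor gene Nr3c1 fell by 0.63 and its target Tsc22d3 by 0.76, the 2 called of 7 genes of that list, both without overlap. None of 16 cell cycle genes was called by limma in the 3 scalings, with changes of -0.49 to 0.06, while 4 of them had an unadjusted p under 0.05 on the deposited values and 4 an adjusted one, all lower, and 1 was called lower without sham 4 or with the replicate block. Likewise none of 9 smooth muscle markers was called, 0 of them with an unadjusted p under 0.05. Of 18 interferon-stimulated genes 1 rose and 2 fell, but the rise, that of Rsad2, was not called without any 1 of wound libraries 3 and 6 or shams 1, 2 and 4, and 1 fell without sham 5. The larger fall was Irf1, an interferon-induced transcription factor, by 1.13. Irf1 had 21.9 to 75.6 FPKM (median 26.7) in wound libraries, against 67.5, 57.7, 66.05 and 82.7 FPKM in shams, and its highest wound value, in wound library 3, lay within the range of the shams.

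Set against 6 h by a test of the difference of the 2 wound effects, 2225 genes had a more positive effect at 1 h, 16.7% of those tested, and 2772 a less positive one, 20.9%. Of the 233 genes that rose by at least 1 at 1 h and met the rule for naming, 112 had the larger effect at 1 h, 35 the smaller and 86 no call for the difference. Of the 120 falls that met it, 69 were more negative at 1 h, none was less negative and 51 had no such call. The differences follow a selection of large effects at 1 h, so these counts describe the genes and support nothing beyond that. Among genes with the more positive effect at 1 h, Arc had the largest difference, with a change of 1.40 at 6 h and a difference of 3.92 (adjusted p = 3.26e-12). Fosb differed by 3.48 (adjusted p = 7.53e-08) and Atf3 by 2.76 (adjusted p = 4.76e-06). Srf, the sterol genes Idi1 and Sqle and the heat shock gene Dnajb1 had effects at 6 h near 0, at -0.08 for Srf, -0.19 for Idi1, 0.05 for Sqle and 0.17 for Dnajb1, and all 14 called sterol genes differed, each with the larger effect at 1 h. Pck1, an enzyme of gluconeogenesis, Slc37a2, a sugar phosphate transporter, and Nxpe2 had differences of 3.34, 2.95 and 2.70, with changes at 6 h of -2.73, -2.99 and -2.79 and no call at 1 h. At 1 h Pck1 had 28.4 to 84.3 FPKM (median 74.9) in wound libraries and 30.4, 35.8, 37.1 and 43.4 FPKM in shams, with wound libraries 2 and 4 below the range of the shams and the other 4 above it, and it was called higher without wound library 2 (0.80, adjusted p = 0.027) or without wound library 4 (0.79, adjusted p = 0.0284).

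In the other direction stood inflammatory genes of the later wound. Cxcl3 differed by -4.97 (adjusted p = 2.26e-09), Ccl4, a macrophage chemokine, by -4.85 and Mmp3, the metalloprotease stromelysin, by -4.51. The interferon-stimulated genes Ifit3, Ifit1 and Isg15 differed by -4.73, -4.58 and -4.37, and 17 of the 18 genes of their list had a smaller effect at 1 h. At 1 h Ifit1 had 0.617 to 4.36 FPKM (median 0.957) in wound libraries and 0.565, 0.954, 0.89 and 0.983 FPKM in shams, and its highest value was that of wound library 2. All 11 tested neutrophil markers had a smaller effect at 1 h than at 6 h. Il1b had a change of 3.14 ± 0.45 at 1 h and 7.09 at 6 h (difference -3.95, adjusted p = 4.03e-06), whereas for Il6 the changes were 3.298 ± 0.24 and 3.37 (difference -0.07 ± 0.34, adjusted p = 0.885). The same difference was -0.10 ± 0.46 for Cxcl1 (adjusted p = 0.872) and -3.23 ± 0.76 for Cxcl2 (adjusted p = 0.00071). Of the 18 genes of the wound epithelium list none had a larger effect at 1 h and 12 a smaller one, among them Sprr1a (-1.58) and Krt6a (-2.44).

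**Figure D5:**
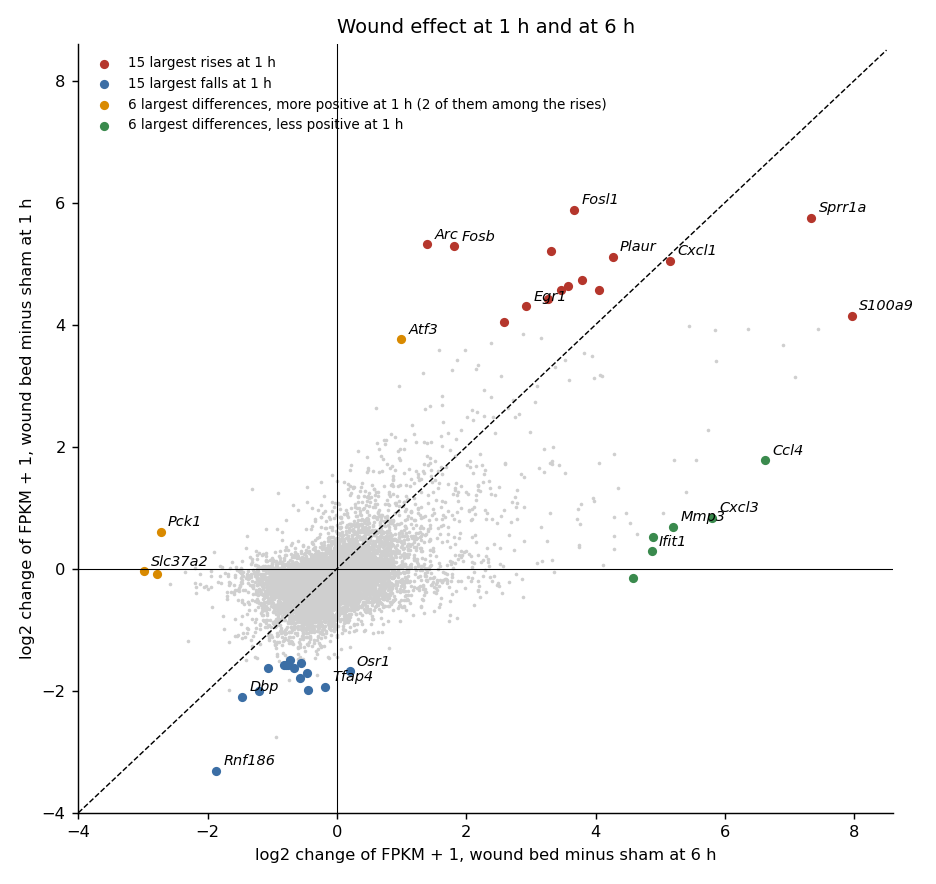
Wound effect at 1 h against wound effect at 6 h, each as log2 change of FPKM + 1 against the shams of that time; coloured points are the named genes and grey points 11944 other tested genes whose wound and sham means at 1 h summed to over 2 FPKM, small RNAs left out. Points above the dashed line of equal effects, such as Arc and Fosb, had the more positive effect at 1 h, and points below it, such as Cxcl3 and Ccl4, at 6 h.

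The genes that changed spanned less of the genome than genes at large. Among genes matched in GENCODE vM21, the median span was 10915 bp for 288 of the 301 rises of at least 1. It was 9714 bp for 163 of the 174 falls as large, against 21978 bp for 12695 of the 13285 tested genes. The same rises and falls had a median of 4 and 3 introns, against 7. The spans are given as a description, without a test.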

How the data were processed

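RNA from the mouse colon was enriched for poly(A) with oligo-dT and made into libraries with a TotalScript kit, per the labels' protocols. The authors deposited 1 FPKM value per gene symbol and library; the submitters' processing notes name STAR, Cufflinks and build mm10, and the sources used here give no versions and no annotation. Read depth is unknown, and strand use in counting is not given, so overlapping and near-identical genes are uncertain. Of 64 libraries, the 41 of the time course entered the fit; 23 of a second cohort on another scale were not used here. Groups came from titles.

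The 13285 genes that reached 1 FPKM in 4 or more libraries were fitted as log2(FPKM + 1) with limma 3.58.1 (R 4.3.3; empirical Bayes with a trend, 8 group means, 33 residual degrees of freedom, Benjamini-Hochberg). A call needed an adjusted p under 0.05 with the same sign in 3 scalings: deposited FPKM, median of ratios and quantile. The fit was tested on simulated data. The comparisons were wound bed minus sham at 1 h, and that effect minus the effect at 6 h. Gene spans came from GENCODE vM21 and promoter sequences from RefSeq (GRCm38.p6), the same assembly as mm10.

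Named genes are those with the 15 largest changes in each direction (called, at least 1 on the log2 scale, a mean of 5 FPKM or more where higher, groups apart), up to 8 members of each gene list, and the 6 largest differences between 1 h and 6 h in each direction. Predicted genes, small RNAs and receptor families were passed over. List members and lists were chosen with earlier results of these data known, and members outside the largest changes of their list, those without a call among them, were chosen after their values were seen. Of 748 entries in 54 lists, 743 were matched to a symbol and 666 passed the filter on low values. Alternatives were the pseudocount, the filter, each scaling alone, array weights, a fit of only the compared groups, a replicate block, a rescaling without small RNAs and leaving out each library. Some members of the lists are counted but not reported by name here.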

Additional observations from a re-analysis of the deposited data

Results flagged for a closer look

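Among 274 sets of values of 1 group looked at, 25 (9.12%) had a library far from the others by Dixon's test, where chance gives about 1 in 20, and 9 of the 25 were sham 1. This test cannot find a split of the 4 shams into 2 pairs. Shams 1 and 2 stood apart from shams 4 and 5 in Fosl1 (1.44 and 1.64 against 0.249 and 0.287 FPKM) and Rnf186 (76.1 and 63.6 against 132 and 121 FPKM). In Kcnk5 (26.6, 37.7, 36.6 and 30.8 FPKM) they did not. How many genes show such a split was not counted. In sham 1 the B cell marker sum was 98.6 FPKM (1.58 to 2.43 FPKM in the other 3 shams), the neutrophil marker sum 5.91 FPKM (2.10 to 2.35), Sprr1a 13.6 FPKM (4.69 to 5.32), C1qa 69.4 FPKM (56.4 to 58.4), Csf1 7.26 FPKM (5.97 to 6.14), Hmox1 9.65 FPKM (5.83 to 6.36) and Id1 429 FPKM (337 to 349). The same sham was low in Hba-a2, at 3.05 FPKM (6.42 to 7.05), and in Slc37a2, at 34.5 FPKM (52.2 to 54.3). Sham 4 was high in Atf3, at 11.5 FPKM (6.47 to 6.98), in Ccl2, at 3.82 FPKM (1.70 to 1.97), and in Csf3, at 0.0199 FPKM where the other 3 shams were listed at 0. Sham 5 was high in Pitx1, at 7.71 FPKM (5.64 to 5.81).

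Wound library 3 stood high in 4 genes of inflammation: Nfkbia at 129 FPKM (46.4 to 56.4 FPKM in the other 5 wound libraries), Tnfaip3 at 43.2 FPKM (13.8 to 18.3), Irf1 at 75.6 FPKM (21.9 to 29.8) and Cxcl3 at 1.89 FPKM (0.707 to 0.924). Wound library 2 stood high in the interferon-stimulated genes Ifit3, at 5.06 FPKM (0.871 to 1.75), and Ifit1, at 4.36 FPKM (0.617 to 1.31). Wound library 6 was low in Dbp, at 3.92 FPKM (15.99 to 19.9), and high in the mast cell marker sum, at 11.99 FPKM (7.79 to 8.98). Wound library 4 was low in Epha2, at 71.5 FPKM (115 to 146), and in Atf4, at 235 FPKM (259 to 273). Wound library 5 was high in Batf3, at 1.25 FPKM (0.267 to 0.555), and Gli1, at 1.53 FPKM (0.812 to 0.995).

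The wound effect differed between 1 h and 6 h by limma's test of the difference for 2225 genes in the positive and 2772 in the negative direction. The 35 genes listed here were kept because that difference was called, so their number is no share of anything. The list does not hold every gene named above whose difference was called. Printed values are the effect at 1 h minus the effect at 6 h on the log2 scale. Positive differences were met for Arc (3.92), Fosb (3.48), Pck1 (3.34), Slc37a2 (2.95), Atf3 (2.76), Nxpe2 (2.70), Fosl1 (2.22), Phlda1 (1.45), Egr1 (1.38), Areg (1.16) and Plaur (0.85). Negative differences of genes called lower at 1 h were met for Osr1 (-1.88), Tfap4 (-1.75), Grb7 (-1.55), Rnf186 (-1.45), Tcf21 (-1.25), Kcnk5 (-1.22), Cited2 (-0.99), Ihh (-0.96), Fam109a (-0.82), Myb (-0.80), Tsku (-0.80), Zkscan14 (-0.76) and Pitx1 (-0.76). Negative differences of genes with larger rises at 6 h were met for Cxcl3 (-4.97), Ccl4 (-4.85), Ifit3 (-4.73), Ifit1 (-4.58), Mmp3 (-4.51), Isg15 (-4.37), Il1b (-3.95), S100a9 (-3.82), Cxcl2 (-3.23), Krt6a (-2.44) and Sprr1a (-1.58). The sets share no library, since each time had shams of its own.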

How the results depend on the processing

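No gene called at 1 h and named here changed sign under any alternative run. Counts over all genes moved by over 1.5 times only with 1 scaling: 5973 genes were lower with the deposited values alone (main count 2437), 2762 were higher with median of ratios scaling alone and 2054 with quantile normalization alone (1200), and 3408 had the more positive effect at 1 h with quantile normalization alone (2225). That setting also turned the balance of the differences, to 3408 more positive against 2920 less positive, where 2225 stood against 2772. Among genes named for their difference from 6 h, the uncalled changes of Slc37a2, Nxpe2 and Ifit3 had different signs in different scalings. Signs of other small uncalled changes are given for the deposited values only, and the median of all tested genes ran from -0.18 to 0.01 between scalings. Leaving out 1 library gave 1007 to 1232 genes higher, 2098 to 2530 lower, 2005 to 2396 more positive at 1 h than at 6 h and 2509 to 2815 less positive, with the fewest higher and the fewest lower genes without sham 4. Wound and sham libraries of 1 time share numbers, but same-numbered libraries did not deviate together at 1 h (correlations 0.0511, -0.111, -0.0171 and 0.0583). So few correlations cannot tell whether same-numbered libraries came from 1 mouse, and a pairing by number is not settled. With the replicate block, 1278 genes were called higher and 2346 lower, and 2149 and 2614 differed from 6 h. Of 669 named or listed genes tested, the call was lost for 16 with the replicate block, 23 in a fit of the 2 groups alone, 16 with a pseudocount of 5 and 2 with a pseudocount of 0.1. Requiring at least 5 FPKM left 2 called genes of endothelial activation, 1 of platelets and 4 of the hedgehog and mesenchyme list, since fewer were tested. Among the lists, enteric neuron and glia markers moved most, from 2 higher to 9 with the replicate block, 10 with quantile normalization alone, 6 with array weights or without wound library 6, 5 with a pseudocount of 5, 4 without sham 5 and 1 without wound library 1, wound library 2 or sham 4. A pseudocount of 0.1 brought Cxcl3 (2.48, adjusted p = 7.32e-05) and Mmp3 (1.22, adjusted p = 0.0225) past the threshold. Read depth is not known, so values under 1 FPKM carry an unknown counting error.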

Other observations

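Zinc finger genes, taken as the 328 tested symbols that begin with Zfp, Zkscan, Zscan or a like stem and chosen after values were seen, had 180 members called lower and 16 called higher, with a median log2 change of -0.40 on the deposited values, -0.26 after median of ratios scaling and -0.22 after quantile normalization. Over all tested genes 18.3% were called lower and 9.03% higher, and the medians on the same scales were -0.18, 0.01 and -0.04. The symbols take in genes of other kinds, such as Zfp36, which rose by 2.11. Of the 328 symbols, 10 fell by at least 1. Zinc finger symbols were 5.75% of the genes that fell by at least 1 and 2.47% of all tested genes.

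Some wound libraries stood high or low in several measures. Wound library 3, high in Nfkbia and Irf1, also had the highest Cxcl1 (104 FPKM), Tnf (7.73 FPKM) and Cxcl2 (30.1 FPKM) of the 6. Wound library 2, high in Ifit1 and Ifit3, had the highest Isg15 (13.3 FPKM). Wound library 5, with the highest red blood cell marker sum (9409 FPKM), also had the highest platelet marker sum (103 FPKM) and neutrophil marker sum (111 FPKM). Markers of enteric neurons and glia had, like smooth muscle markers, their lowest sum in wound library 6, at 18.9 FPKM, and reached 93.1 FPKM in the wound bed. Of 11 tested neuron and glia markers 2 were called, a count of 1 without wound library 1, wound library 2 or sham 4, and 6 without wound library 6. Gfap, an intermediate filament of enteric glia, had a log2 change of 1.66 ± 0.33 by limma (adjusted p = 5.98e-05). Its level was 2.40 to 9.69 FPKM in wound libraries and 1.77, 0.848, 0.841 and 1.46 FPKM in shams. Tubb3, neuronal tubulin, changed by 0.87 ± 0.31 (adjusted p = 0.0164 on the deposited values). Its largest adjusted p over the 3 scalings was 0.05004 without wound library 1, 0.0568 without wound library 2 and 0.073 without sham 4. The part of tissue composition in these values was not tested.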
